A study of Mus musculus with 4 samples.

Results

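The 31 genes described here are the digestive enzyme genes of the pancreatic acinar cell, the granule proteins packed with those enzymes, and 4 transcription factors of the acinar programme. They were taken by symbol from the 24940 genes of the deposited table: 6 trypsinogens, 3 chymotrypsinogens, 4 elastases, 2 carboxypeptidases, 4 lipases with colipase, 2 amylases, 1 ribonuclease, 4 zymogen granule proteins and the 4 factors. All 31 symbols were found. Total RNA was sequenced from pancreatic islets, the clusters of insulin- and glucagon-secreting cells, of male mice aged 3 to 4 months and fed a low-fat chow. Control replicates 1 and 2 came from non-transgenic mice, and knockdown replicates 3 and 4 from Tafazzin knock-down mice; Tafazzin, encoded by Taz, remodels cardiolipin in the inner mitochondrial membrane. Each of the 4 libraries held the RNA of about 300 islets pooled from 2 to 3 mice, after a step to deplete ribosomal RNA. The controls carried no transgene, so its presence cannot be told apart from the loss of Tafazzin, and p-values rest on pools, not on single mice.

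Acinar cells make up most of the pancreas and export enzymes through the pancreatic duct. Proteases are stored as inactive zymogens; enteropeptidase in the gut cuts the activation peptide from trypsinogen, and trypsin then activates the chymotrypsinogens, proelastases and procarboxypeptidases. The enzyme genes are switched on by PTF1, a complex of PTF1A, an E protein and RBPJL, together with NR5A2, while BHLHA15 (MIST1) drives the secretory machinery of the cell. Islets are freed from this tissue by digestion, so isolated islets often bring acinar RNA with them.

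The sequences below set the results in context. The trypsinogen genes are near-copies of each other, which bears on how reads were divided among them. For each, 60 bases of the GENCODE M21 transcript on chromosome 6 (GRCm38) are given 5′ to 3′ in transcript sense, starting in the activation peptide with its run of acidic codons; capitals mark bases that differ from Prss2.
Prss2: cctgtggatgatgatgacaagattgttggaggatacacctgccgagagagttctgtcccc
Try4: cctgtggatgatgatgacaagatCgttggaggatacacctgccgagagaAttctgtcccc
Try5: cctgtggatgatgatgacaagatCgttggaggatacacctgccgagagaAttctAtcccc
Try10: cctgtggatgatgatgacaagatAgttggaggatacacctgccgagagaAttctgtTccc
Prss3: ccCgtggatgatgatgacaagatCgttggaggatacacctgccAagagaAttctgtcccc
Prss1: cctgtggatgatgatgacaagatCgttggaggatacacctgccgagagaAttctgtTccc
Try4 differed from Prss2 at 2 of the 60 bases, Try5, Try10 and Prss1 at 3 each, and Prss3 at 4. Of all 50-base windows of the whole transcript, 65.6% in Try4, 53.9% in Try5, 40.8% in Try10, 66.1% in Prss3 and 54.9% in Prss1 also occurred in a transcript of another gene, but 7.83% in Prss2. Values of single trypsinogens other than Prss2 are therefore uncertain.

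Promoters, from 250 bases before to 50 after the start of the gene, were taken from RefSeq on GRCm38.p6, and 26 of the 31 genes had one at the deposited start. Ctrb1 and Prss2 are shown as the chymotrypsinogen and trypsinogen with the highest levels. Cela3b and Cela3a are shown as near-copies of which one was read and the other hardly at all. Bhlha15 is shown as the factor whose levels ran against those of the enzymes within each group. Capitals mark TGGGAA, the core letters bound by RBPJ-type proteins, CACCTG or CAGCTG, forms of the E-box that PTF1A binds with its E protein partner, and TATAAA, each on either strand; a TGGGAA match may share bases with an E-box match. Each is printed 5′ to 3′ on the strand of the gene.
Ctrb1, chr8:111690961-111691260, minus strand: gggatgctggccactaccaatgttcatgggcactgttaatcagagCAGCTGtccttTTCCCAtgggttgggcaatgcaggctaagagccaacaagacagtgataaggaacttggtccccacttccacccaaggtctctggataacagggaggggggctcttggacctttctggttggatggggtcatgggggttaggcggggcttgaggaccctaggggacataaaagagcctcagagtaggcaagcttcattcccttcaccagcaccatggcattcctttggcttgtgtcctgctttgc
Prss2, chr6:41521526-41521825, plus strand: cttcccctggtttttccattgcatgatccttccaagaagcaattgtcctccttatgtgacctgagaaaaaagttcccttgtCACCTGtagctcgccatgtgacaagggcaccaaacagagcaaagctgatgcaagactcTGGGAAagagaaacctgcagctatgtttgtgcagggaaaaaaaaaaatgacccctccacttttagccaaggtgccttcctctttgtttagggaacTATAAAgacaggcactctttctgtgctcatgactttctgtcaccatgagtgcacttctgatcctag
Cela3b, chr4:137430471-137430770, minus strand: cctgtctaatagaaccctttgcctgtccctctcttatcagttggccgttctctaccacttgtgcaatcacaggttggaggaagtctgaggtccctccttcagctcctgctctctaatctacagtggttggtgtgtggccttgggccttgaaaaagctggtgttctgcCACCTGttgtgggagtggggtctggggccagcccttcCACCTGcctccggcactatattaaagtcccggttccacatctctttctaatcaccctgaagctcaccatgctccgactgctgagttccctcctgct
Cela3a, chr4:137409742-137410041, minus strand: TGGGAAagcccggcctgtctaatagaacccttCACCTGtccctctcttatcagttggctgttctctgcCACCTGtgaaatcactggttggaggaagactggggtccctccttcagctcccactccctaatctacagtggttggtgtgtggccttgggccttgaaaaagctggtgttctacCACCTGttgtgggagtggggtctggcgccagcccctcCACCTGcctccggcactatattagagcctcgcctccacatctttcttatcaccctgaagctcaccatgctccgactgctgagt
Bhlha15, chr5:144190036-144190335, plus strand: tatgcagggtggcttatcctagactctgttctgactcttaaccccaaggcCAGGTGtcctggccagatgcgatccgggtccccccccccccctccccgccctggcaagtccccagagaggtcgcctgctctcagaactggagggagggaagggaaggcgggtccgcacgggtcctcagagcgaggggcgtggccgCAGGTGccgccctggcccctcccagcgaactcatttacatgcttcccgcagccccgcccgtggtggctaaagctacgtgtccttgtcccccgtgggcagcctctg
TGGGAA occurred in 16 of the 26 promoters, against 25.6% of 32851 promoters of the same length. CACCTG or CAGCTG occurred in 18 of 26, against 32.9%, and TATAAA in 10 of 26, against 13.6%. Of the 26, 9 held both TGGGAA and CACCTG or CAGCTG, against 8.64% of all promoters. The Ctrb1 and Prss2 promoters each held 1 match of TGGGAA and 1 of the E-box forms. Those of Cela3b and Bhlha15 each held 2 E-box matches and no TGGGAA. These matches describe letters in a window, not bound sites.

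Library totals were 68823160 and 81073502 reads for the control pools and 76680282 and 78630832 for the knockdown ones. Levels are given in units of reads per 10000000 reads of the library total, without correction for gene length, so that 1 read was worth 0.123 to 0.145 units and 3 reads, the limit that a count of 0 allows, 0.370 to 0.436 units. Set apart were 13 rows with a mean above 25000 units, while Ins1 and Ins2, also above that limit, were kept. Among the rows set apart was Rn45s, the ribosomal RNA precursor, with 41.6% to 42.6% of each library total despite the depletion. The kept rows held 4320910 to 4962798 reads, equal to 5.33% to 6.68% of the library totals. Part of each total lay in no row of the table. Taz had 23.1 and 15.4 units in control pools against 13.8 and 12.7 in knockdown pools (limma adjusted p = 0.529). Its groups did not overlap, yet limma did not call it. Fold changes below are on the log2(level + 1) scale, which understates changes of low genes. They are relative to the median of all 13531 tested genes, which itself stood 0.17 higher in knockdown. The limma p tests the unshifted change. The limma SE follows mostly the level of a gene, not the spread of that gene's own pools. Rab3d and Dmbt1, exocrine genes, both had an SE of 0.24. Yet control replicate 2 over 1 was 0.94 for Rab3d and 2.43 for Dmbt1. For genes whose pools differ widely, as the enzymes do, the SE and the limma p thus understate the spread between pools.

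Digestive enzyme RNA was present in every pool, at amounts that differed more between pools of the same genotype than between genotypes. The levels of all 31 genes summed to 3706 and 7556 units in control replicates 1 and 2 and to 6441 and 3045 units in knockdown replicates 3 and 4. Control replicate 2 and knockdown replicate 3 were the high pools, control replicate 1 and knockdown replicate 4 the low ones, and the groups overlapped. These sums were 25504, 61263, 49392 and 23942 reads, or 0.555%, 1.42%, 1.02% and 0.482% of the reads in the kept rows, Ins1 and Ins2 included. The second control pool held 2.04 times the level of the first, and knockdown replicate 3 held 2.12 times that of replicate 4. After median-ratio scaling, which divides control replicate 2 by 0.847 and the other pools by 1.04 to 1.08, these ratios were 2.498 and 2.08. The group means were 5631 ± 2723 units in controls and 4743 ± 2402 in knockdown (SD, n = 2 each), a log2 ratio of −0.26, and a two-sided exact permutation test over the pools gave p = 0.667, where the smallest p that 2 against 2 can give is 0.333. After median-ratio scaling the log2 ratio was −0.44, with the same p. In bulk RNA, fewer acinar cells and less RNA per acinar cell cannot be told apart.

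Without control replicate 2 the log2 ratio of the summed level was 0.26, and without knockdown replicate 4 it was 0.28, so its direction rested on single pools. Set against the 12 islet endocrine markers, the acinar sum was 3.28% and 8.30% of theirs in the controls and 6.62% and 2.92% in knockdown. Endocrine markers themselves summed to 112969 and 91058 units in the controls and to 97291 and 104395 in knockdown, and 0 of 12 passed limma. After median-ratio scaling the endocrine sums were 108830 and 107459 against 90462 and 98758 units, with both controls above both knockdown pools. Mafa, which drives insulin gene transcription, had 183 and 125 units in control pools against 113 and 122 in knockdown pools. Its log2 fold change was −0.53 ± 0.23 (SE) with a limma adjusted p of 0.669, but it was lower by edgeR (adjusted p = 0.0439), DESeq2 (adjusted p = 0.0318) and after median-ratio scaling (adjusted p = 0.0198). Ins2, one of the mouse insulin genes and the marker with the most reads, stood at 58452, 46108, 48195 and 51995 units in the pools in the same order.

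Markers of other pancreatic cell types did not have the order of the acinar sum: in each of 4 lists both knockdown pools summed higher than both controls, except that after median-ratio scaling the macrophage sums overlapped (42.3 and 46.0 against 55.3 and 43.8 units). The 12 duct markers summed to 668 and 592 units in the controls and to 1281 and 825 in knockdown, with 6 of 11 tested genes higher by limma, where 2.49% of all genes were. Those of stellate cells and fibroblasts summed to 135 and 138 against 436 and 327 units, with 9 of 12 higher. Endothelial markers summed to 185 and 155 against 359 and 275 units, with 5 of 10 higher, and macrophage markers to 43.9 and 39.0 against 59.5 and 46.3 units, with 2 of 6 higher. By DESeq2 the counts of higher genes were 2 for duct, 7 for stellate cells and fibroblasts, 3 for endothelial and 1 for macrophage markers, after median-ratio scaling 4, 8, 4 and 1, and by edgeR 5, 8, 4 and 1. The leading gene of each list was Spp1, a matrix glycoprotein of duct cells, at 252 and 251 against 720.1 and 373 units (a log2 fold change of 0.88 ± 0.22 (SE) with a limma adjusted p of 0.000324, but 0.917 by DESeq2); Sparc, a collagen-binding matrix protein, at 53.5 and 52.3 against 126 and 105 units (0.94 ± 0.24, adjusted p = 0.000405); Eng, an endothelial TGF-beta co-receptor, at 28.6 and 25.04 against 69.6 and 45.5 units (0.88 ± 0.25, adjusted p = 0.00182); and Cd74, the invariant chain of MHC class II, at 28.6 and 20.8 against 27.9 and 20.3 units (−0.20 ± 0.25, adjusted p = 0.988). No marker was at 0 in every pool. Their part in the acinar levels was not tested.

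Of the 31 genes, 25 passed the filter on low values and were tested, and 0 of them passed limma's test at an adjusted p of 0.05, where 2.53% of all tested genes did. The count was also 0 by edgeR's quasi-likelihood test on the recovered reads (1.43% of all genes), by DESeq2 (0.695%) and after median-ratio scaling (1.27%). Unadjusted p fell under 0.05 for 2 of the 25 genes in limma, against 10.3% of all genes, namely Try5 and Pnliprp2. It did so for 9 in edgeR (10.3% of all), for 1 in DESeq2 (5.39%) and for 7 after median-ratio scaling (10.3%). The fold changes ran from −0.67 to 0.40 with a median of −0.41, and 23 of 25 lay below the median of all genes, as 50% of all genes do by construction. On library totals, the groups did not overlap for 2 of the 25 tested genes, Prss3 and Nr5a2, both higher in knockdown. Of all genes 39.4% did not overlap, 34.9% higher and 4.49% lower. These separations depended on the scaling: after median-ratio scaling the groups of Prss3 and Nr5a2 overlapped. Those of Bhlha15 and Amy2b then did not, both lower in knockdown. The share of all genes was not counted on that scale.

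**Figure D1:**
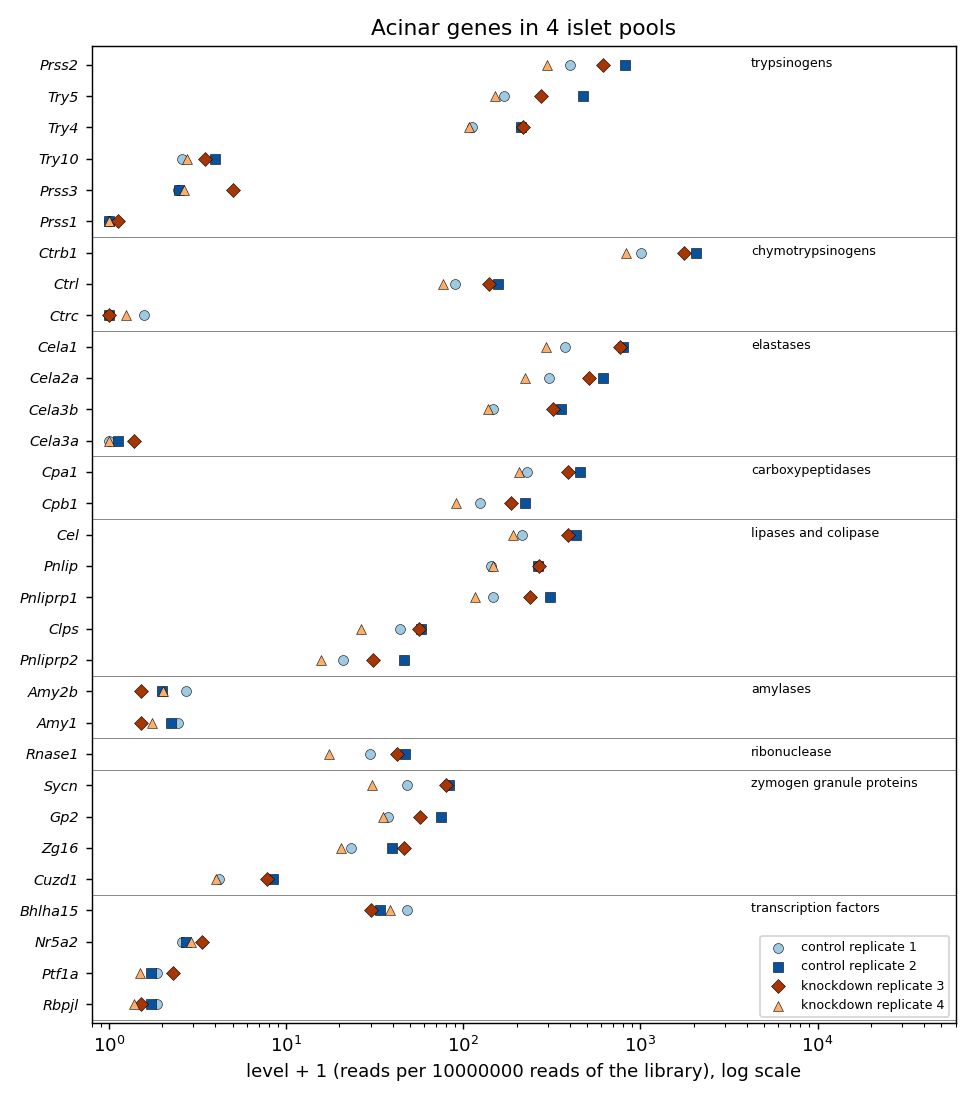
Level + 1 in reads per 10000000 reads of the library (log scale) of the 31 acinar genes by role, 1 point per pool (2 control, 2 knockdown). For most enzymes control replicate 2 and knockdown replicate 3 lie together to the right and the other 2 pools to the left, as for Ctrb1 at 2057 and 1767 against 1001 and 828 units; Bhlha15 lies the other way round.

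Among the trypsinogens, Prss2 (chr6:41521776-41525079 on mm10), a major anionic trypsinogen of the mouse, had the highest level per length, 652 units per kb of exon. Levels per length here divide all reads of a row, introns included where these were counted, by exon length alone. Prss2 stood at 401 and 812 units in control pools against 616 and 295 in knockdown pools. The groups overlapped, with control replicate 2 highest and knockdown replicate 4 lowest (log2 fold change −0.58 ± 0.22 (SE), limma adjusted p = 0.509). Try5 stood at 168 and 476 against 275 and 149.7 units, the widest ratio between control pools, 2.83, among the enzymes with a mean of at least 10 units (−0.64 ± 0.23, unadjusted p = 0.0352, limma adjusted p = 0.404). Try4 stood at 111 and 209.7 against 216 and 106 units (adjusted p = 0.997). In Try4 knockdown replicate 3 was slightly above control replicate 2, unlike in Prss2 and Try5.

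The remaining trypsinogens were hardly read. Try10 had 1.60 and 2.96 against 2.48 and 1.78 units. Prss3 had 1.45 and 1.48 units in controls and 4.04 and 1.65 in knockdown, from 10, 12, 31 and 13 reads, with knockdown replicate 3 apart from the other 3 pools (0.40 ± 0.41, limma adjusted p = 0.743). Prss1 had 1 read in knockdown replicate 3 and 0 in the other pools, within the limit that a count of 0 allows.

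Ctrb1, chymotrypsinogen B, had the highest level per length of all 31 genes, 1610 units per kb of exon (chr8:111686510-111691010, minus strand; coordinates are mm10 and span exons and introns). It stood at 1001 and 2057 units in control pools against 1767 and 828 in knockdown pools. The high and low pools were those of the summed level, and the groups overlapped (log2 fold change −0.41 ± 0.21 (SE), limma adjusted p = 0.810). Ctrl, a chymotrypsin-like protease, followed the same order at 89.1, 155, 138 and 76.1 units (adjusted p = 0.891). Ctrc, chymotrypsinogen C, which in humans degrades trypsinogen, had 4 and 0 reads in controls and 0 and 2 in knockdown, too few to test.

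The elastases shared this pattern where they were read. Cela1 (chr15:100674422-100687920) stood at 376 and 799 units in control pools against 771 and 293 in knockdown pools, so that knockdown replicate 3 nearly reached control replicate 2 (−0.37 ± 0.22, limma adjusted p = 0.873). Cela2a stood at 302, 616, 513 and 223 units in the pools in the order control 1, control 2, knockdown 3 and knockdown 4 (adjusted p = 0.653). Its row overlaps Casp9 on the opposite strand, whose level was 0.106 times its own. Of the 50-base windows of the Cela2a transcript, 25.6% also occur in another gene, Ctrc or Casp9. Cela3b stood at 146, 356, 319 and 137 units in the same order (adjusted p = 0.941). Cela3a, its near-copy, had 0 and 1 reads in controls and 3 and 0 in knockdown. Of the 50-base windows of the Cela3b transcript, 33.2% also occur in another gene, and 34.2% of those of Cela3a. Per kb of exon, Cela3b had a level of 259 units and Cela3a 0.134. The Cela3a promoter printed above held 4 E-box matches and 1 TGGGAA, more than that of Cela3b.

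Cpa1 (chr6:30639218-30645361), procarboxypeptidase A, which trims aromatic and aliphatic residues from peptides, stood at 227 and 455 units in control pools against 392 and 205 in knockdown pools. Both groups held a high and a low pool (−0.35 ± 0.22 (SE), limma adjusted p = 0.893). Cpb1, which removes basic residues, stood at 123, 223, 184 and 90.2 units in the same order of pools (adjusted p = 0.672).

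Of the fat-digesting proteins, Cel (chr2:28555820-28563403), the bile-salt-activated lipase, had the highest level per length, 149 units per kb of exon, with 214 and 431 units in control pools against 391 and 191 in knockdown pools. Again control replicate 2 was highest and knockdown replicate 4 lowest (−0.32 ± 0.22 (SE), limma adjusted p = 0.915). Pnlip, pancreatic triglyceride lipase, stood at 143, 264, 268 and 147 units, the one abundant enzyme in which control replicate 1 was the lowest pool (adjusted p = 0.988). Its relatives Pnliprp1, at 146, 308, 236 and 115 units (adjusted p = 0.657), and Pnliprp2, at 20.1, 45.5, 29.995 and 14.8 units (−0.67 ± 0.25, unadjusted p = 0.0444, adjusted p = 0.453), kept control replicate 2 on top. Clps, colipase, which anchors the lipase to fat droplets, stood at 43.0, 56.5, 55.6 and 25.4 units (adjusted p = 0.671). Its ratio between control pools, 1.31, was the smallest among the enzymes with a mean of at least 10 units.

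Amylase, which digests starch, was nearly missing from the table. Amy2b (chr3:113147656-113156727) had 1.74 and 0.987 units in controls and 0.522 and 1.02 in knockdown, from 12, 8, 4 and 8 reads. The groups overlapped on library totals but not after median-ratio scaling (−0.58 ± 0.50, limma adjusted p = 0.891). Amy1, the salivary and liver form, had 10 and 10 reads against 4 and 6, groups that did not overlap at a depth too low to be tested. The pancreatic amylase rows Amy2a2, Amy2a3, Amy2a4 and Amy2a5 were listed at 0 in every library. In GENCODE M21 all 50-base windows of Amy2a2, Amy2a3 and Amy2a4, 100% of each, and 57.2% of those of Amy2a5 recur in another gene. Of the 409 deposited rows placed at more than 1 position, 83.4% were listed at 0 in every library, against 26.7% of rows with 1 position. Amylase levels read from this table are therefore uncertain.

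The secreted ribonuclease Rnase1 (chr14:51145002-51146767) stood at 28.8 and 46.1 units in control pools against 41.1 and 16.5 in knockdown pools. Knockdown replicate 4 lay well below the other pools (−0.63 ± 0.25 (SE), limma adjusted p = 0.533). Among proteins of the zymogen granule, syncollin, encoded by Sycn (chr7:28540885-28542210), stood at 46.9 and 81.7 against 78.5 and 29.4 units. It had the order of Rnase1 (−0.52 ± 0.24, adjusted p = 0.709). Gp2, the major granule membrane protein, stood at 36.6, 74.3, 56.1 and 34.3 units (adjusted p = 0.859), Zg16, a granule lectin, at 22.4, 38.5, 45.4 and 19.3 (adjusted p = 0.995), and Cuzd1, a granule membrane protein, at 3.20, 7.40, 6.78 and 3.05 (adjusted p = 0.976). In each, control replicate 2 and knockdown replicate 3 were the 2 high pools.

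The transcription factors did not share the order of the enzymes. Bhlha15 (chr5:144190286-144194441) stood at 47.4 and 33.1 units in control pools against 29.2 and 37.4 in knockdown pools, from 326, 268, 224 and 294 reads. On library totals, the pools low in enzymes were high in Bhlha15 and the reverse, and the groups overlapped (−0.42 ± 0.25 (SE), limma adjusted p = 0.852). After median-ratio scaling both control pools of Bhlha15 lay above both knockdown pools, with control replicate 2 above knockdown replicate 4. The order on library totals, control 1, knockdown 4, control 2 and knockdown 3, was held by 3.84% of all tested genes. Among them were the islet endocrine markers Slc2a2, Nkx6-1 and Pcsk2, and Sel1l and Rab3d of the export machinery. On library totals, Ins1, Ins2, Iapp, Chga and Pdx1 were also highest in control replicate 1 and then knockdown replicate 4. The endocrine markers Gcg, Sst, Ppy and Mafa had other orders. Which cells the Bhlha15 reads came from was not tested. Nr5a2 had 1.60 and 1.73 against 2.35 and 1.91 units, from 11, 14, 18 and 15 reads (0.06 ± 0.42, limma adjusted p = 0.940). Both knockdown pools of Nr5a2 were slightly above both controls on library totals, but not after median-ratio scaling. Its sign turned under quantile normalization (−0.06) and when control replicate 1 or knockdown replicate 3 was left out. Ptf1a had 6, 6, 10 and 4 reads and Rbpjl 6, 6, 4 and 3; both rows overlap another gene (Ptf1aos and Matn4), and neither could be tested. Rbpjl groups did not overlap, at counts near the limit of detection. Per kb of exon Bhlha15 had 10.5 units, Ptf1a 0.568, Nr5a2 0.340 and Rbpjl 0.256, against 106 for Sycn and 1610 for Ctrb1. Reads in introns or from overlapping genes can raise such values, above all in a long row such as that of Nr5a2.

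The pattern across pools was summarised for the 19 enzyme and granule genes with a mean of at least 10 units, a summary chosen after the values were seen. In all 19, both control replicate 2 and knockdown replicate 3 were above both other pools. Control replicate 2 exceeded control replicate 1 by 1.31 to 2.83 times (median 2.01), and knockdown replicate 3 exceeded replicate 4 by 1.63 to 2.67 times (median 2.05). The ratio of the knockdown mean to the control mean ran from 0.659 to 1.06 (median 0.839). The full order of control 2, knockdown 3, control 1 and knockdown 4 held in 16 of the 19. Try4, Pnlip and Zg16 had knockdown replicate 3 highest. Knockdown replicate 4 was lowest in 18, all but Pnlip.

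This pattern was scarce in the rest of the table. Of the 25 tested acinar genes, 16 had the full order with both ratios at 1.5 or more, against 0.333% of all tested genes, and 17 had the order at any size, against 0.872%. Both ratios reached 1.5 in any order for 19 of the 25, against 2.22% of all genes. The genes were measured in the same 4 libraries, so they are not independent observations of it. The order and the limit of 1.5 were also chosen after the values of these genes were seen. Their excess over the table is therefore no test of the pattern, and the percentages of all genes include these genes.

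**Figure D2:**
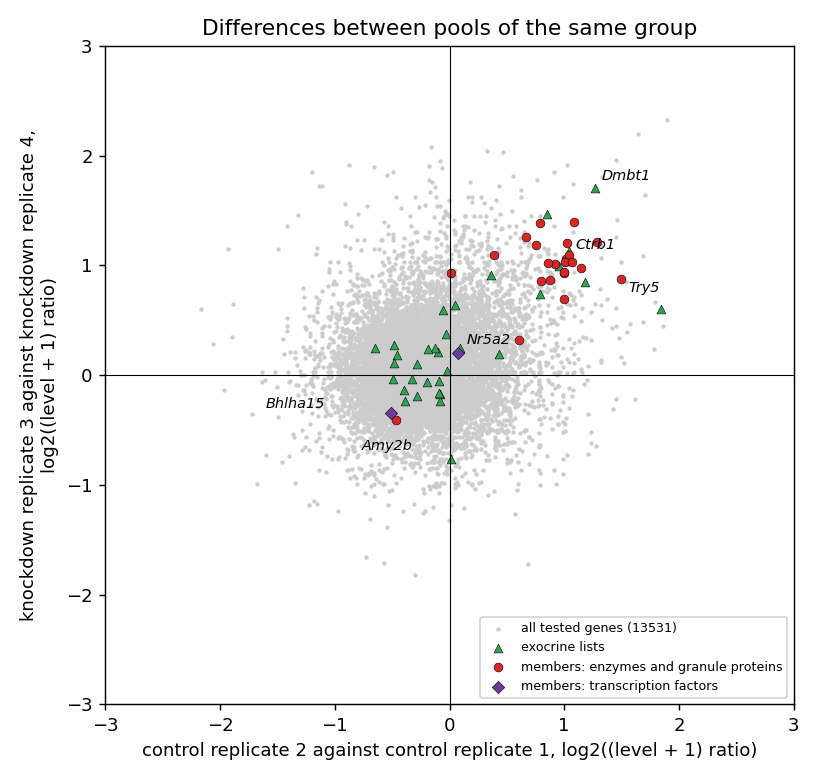
Difference between the 2 control pools (horizontal) and between the 2 knockdown pools (vertical), as log2 ratios of level + 1, for the 13531 tested genes (grey), the tested acinar genes by class and the 2 lists of other exocrine genes. Most enzymes and granule proteins lie near 1 on both axes, apart from the bulk of genes around 0, while Bhlha15 lies below 0 on both.

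**Figure D3:**
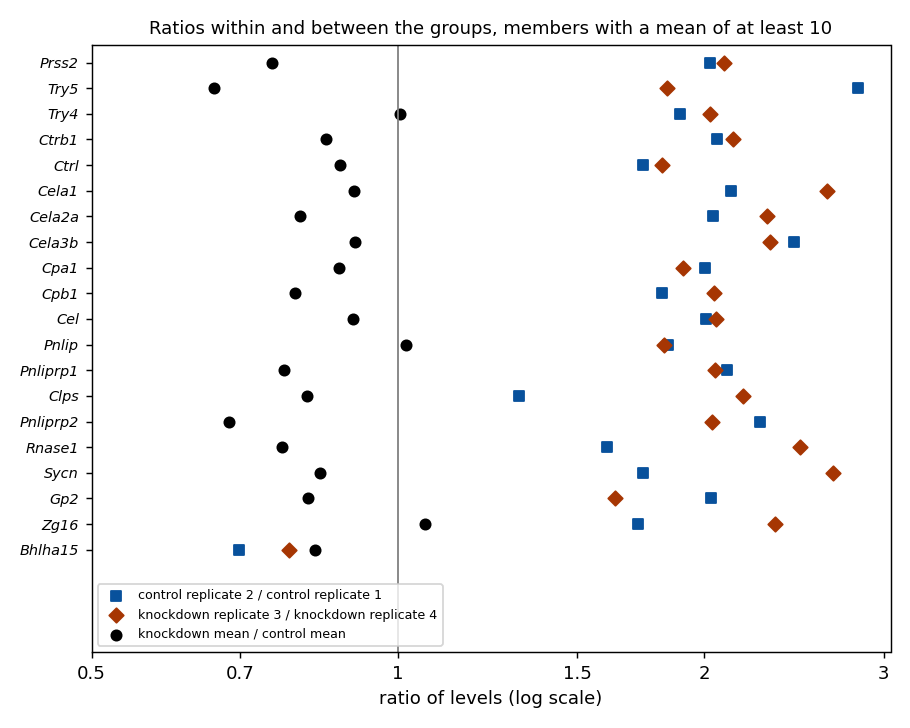
Ratios of levels (log scale) for the 19 enzyme and granule genes with a mean of at least 10 units and for Bhlha15: control replicate 2 over 1, knockdown replicate 3 over 4, and knockdown mean over control mean. For each of the 19, both ratios within a group lie farther from 1 than its own ratio between groups, though the ranges over genes (1.31 to 2.83 and 1.63 to 2.67 within, 0.659 to 1.06 between) overlap in size; all 3 ratios of Bhlha15 lie below 1.

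While the amount varied, the make-up of the acinar RNA was nearly the same in every pool. As a share of the reads of all 31 genes, Ctrb1 took 27.0% and 27.2% in the controls and 27.4% and 27.2% in knockdown. For the 19 genes, the largest share over pools exceeded the smallest by 1.02 to 1.55 times (median 1.26), against 1.87 to 3.18 times (median 2.48) for their levels. The share stayed under 1.5 times in 18 of 19. Clps, at 1.16%, 0.748%, 0.862% and 0.835%, was the exception. By role, trypsinogens took 17.3% to 19.9%, chymotrypsinogens 29.3% to 29.7%, elastases 21.4% to 24.9%, carboxypeptidases 8.94% to 9.71%, and lipases with colipase 14.6% to 16.2%. Bhlha15 took 1.28% and 0.437% in controls and 0.454% and 1.23% in knockdown.

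Within this make-up, the shares of some genes did not overlap between genotypes. The share of Prss2 was 10.8% and 10.8% in the controls and 9.57% and 9.69% in knockdown. The Wilson 95% intervals, which cover counting error only, were 10.4% to 11.2% and 10.5% to 11.0% against 9.31% to 9.83% and 9.33% to 10.1%, and did not touch between groups. Pnlip ran the other way with 3.87% and 3.49% against 4.16% and 4.82%, and so did Cel with 5.79% and 5.70% against 6.07% and 6.27%. Their groups did not overlap either. In all, 8 of the 19 shares (42.1%) did not overlap between groups. Of these, 4 were higher in knockdown (Pnlip, Cel, Try4, Zg16) and 4 lower (Prss2, Cela2a, Pnliprp1, Pnliprp2). For levels, a different measure, 39.4% of all tested genes did not overlap, 34.9% higher and 4.49% lower. No background on the scale of shares is given here, so the count is not read as a result about these genes. Shares add to a whole and so depend on each other, and with 2 pools a group no exact permutation test of a share could give a p under 0.333.

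**Figure D4:**
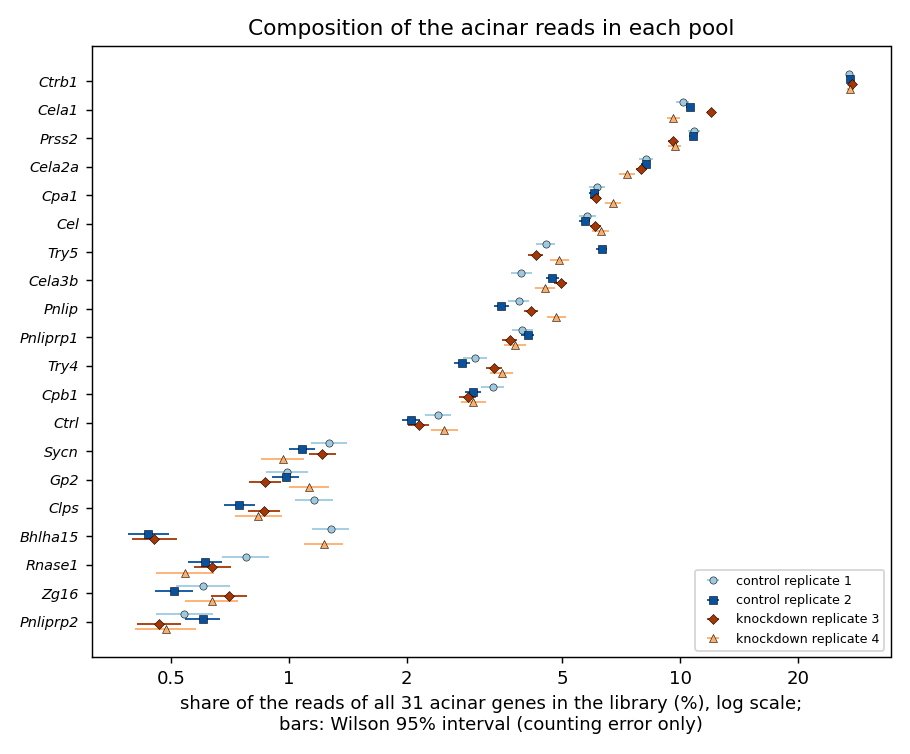
Share of the reads of all 31 acinar genes taken by each of the 19 abundant enzyme and granule genes and Bhlha15 (percent, log scale), 1 point per pool with its Wilson 95% interval (counting error only). The 4 points of Ctrb1 coincide at 27.0% to 27.4%; the control points of Prss2 lie right of its knockdown points, and Bhlha15 splits by pool and not by genotype.

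How a comparison of genotypes reads depended on which pool was left out. Without control replicate 1, 18 of the 25 tested genes fell in knockdown by limma, against 0.273% of all genes, and 0 of the 25 rose, against 9.36% of all genes. The log2 fold change was then −1.07 for Ctrb1 and −1.53 for Try5. Without control replicate 2, 3 rose, against 2.67% of all genes, namely Cela3b (0.49, limma adjusted p = 0.00461), Pnlip (0.44, adjusted p = 0.0190) and Try4 (0.42, adjusted p = 0.0452). Without knockdown replicate 3 the count was 0, against 0.207% higher and 0.0296% lower of all genes, and without knockdown replicate 4 it was 0, against 2.39% higher and 0.0222% lower. In these fits 1 group has a single pool, and the SE follows mostly the level of a gene, not the spread of its pools. Without control replicate 1 the SE of Ctrb1 was 0.10, though knockdown replicate 3 was 2.13 times replicate 4. The counts and p-values of these fits thus do not measure the spread between pools. The median fold change over the 25 genes was −0.98 when control replicate 1 was left out and 0.23 when control replicate 2 was. It was −0.83 when knockdown replicate 3 was left out and 0.07 when replicate 4 was.

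**Figure D5:**
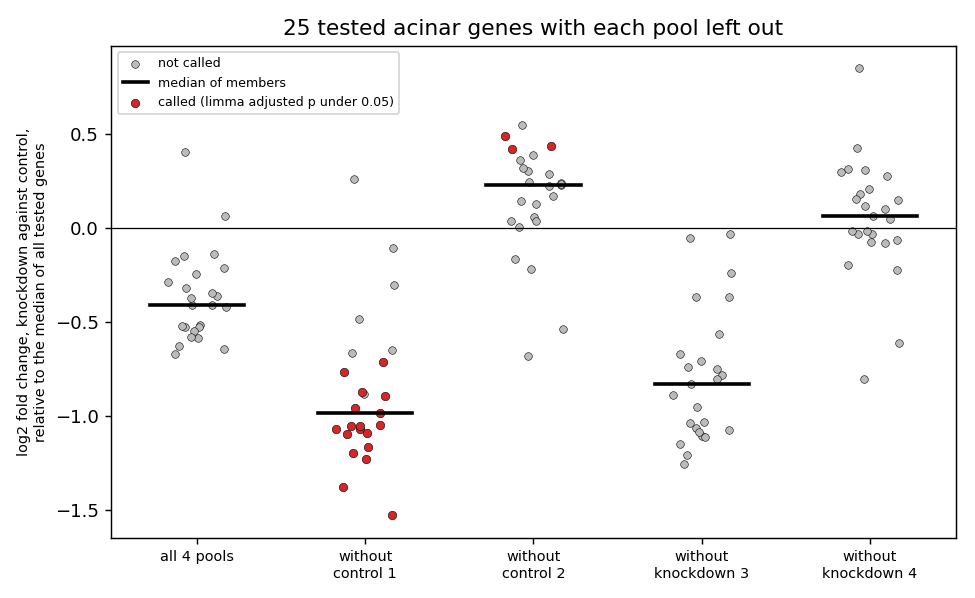
Log2 fold change of the 25 tested acinar genes, knockdown against control and relative to the median of all tested genes, with all 4 pools and with each pool left out; red points passed limma at an adjusted p of 0.05, bars are medians. The median moves from −0.41 with all pools to −0.98 without control replicate 1 and to 0.23 without control replicate 2.

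Other genes of the exocrine programme were read in 2 lists. Of 16 further acinar enzymes, inhibitors and granule genes, 7 were tested, 0 passed limma at an adjusted p of 0.05 (2.53% of all genes), 1 (Dmbt1) had an unadjusted p under 0.05 and the median fold change was −0.50. The gene with the highest level per length among them, 2210010C04Rik, stood at 142, 290.6, 221 and 107 units in the pools in the order control 1, control 2, knockdown 3 and knockdown 4 (−0.56 ± 0.23 (SE), limma adjusted p = 0.595). Dmbt1, a secreted scavenger receptor, stood at 78.2, 189.7, 151 and 45.7 units (−0.71 ± 0.24, adjusted p = 0.306), and Klk1, tissue kallikrein, at 43.7, 101, 75.1 and 41.2 units (−0.42 ± 0.24, adjusted p = 0.849). All 3 had the order of the enzymes, as had Tff2, a trefoil peptide. Spink1, the trypsin inhibitor stored beside trypsinogen, stood at 6.10, 24.4, 13.3 and 8.39 units, again with control replicate 2 highest.

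The second list held 33 genes of the receptors, endoplasmic reticulum and export machinery that acinar cells use, many of which islet cells use too. Of 28 tested, 0 were higher and 1 was lower by limma (0.0443% of all genes were lower), and the median fold change was −0.05. Derl3, which helps clear misfolded proteins from the endoplasmic reticulum, fell from 4.65 and 4.69 units in the controls to 0.782 and 2.04 in knockdown, 32 and 38 reads against 6 and 16 (−1.45 ± 0.38 (SE), limma adjusted p = 0.0305). It did not pass by edgeR (adjusted p = 0.0840), by DESeq2 (adjusted p = 0.279) or after median-ratio scaling (adjusted p = 0.0609). With a pseudocount of 0.25, and without the trend, 1 gene of the 2 exocrine lists passed limma, lower in knockdown. With 1 pool left out, the log2 fold change of Derl3 ran from −1.85 (without knockdown replicate 4) to −1.06 (without knockdown replicate 3). Rab27b, a granule docking GTPase, at 2.62 and 2.47 against 6.26 and 3.82 units (adjusted p = 0.374), and Rbpj, the Notch pathway factor related to Rbpjl, at 15.1 and 11.8 against 20.3 and 20.9 units (adjusted p = 0.306), had groups that did not overlap but did not pass.

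The 3 genes of that list with the most reads divided in their order of pools. Nupr1, a stress-response nuclear protein, stood at 161, 279, 243 and 145 units, in the order of the enzymes (−0.34 ± 0.23 (SE), limma adjusted p = 0.897). Xbp1, the unfolded protein response factor, at 190.3, 179, 179 and 200.05 units (−0.13 ± 0.23, adjusted p = 0.986), and Sel1l, a degradation adaptor, at 173, 132, 126 and 148 units (−0.31 ± 0.23, adjusted p = 0.928), did not. The list summed to 1489 and 1387 units in control pools against 1513 and 1413 in knockdown pools, without the spread of the enzymes. After median-ratio scaling its sums were 1434 and 1637 against 1407 and 1337 units, with both controls above both knockdown pools.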

How the data were processed

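RNA of 2 control and 2 knockdown islet pools was sequenced after ribosomal depletion with a directional kit, per the labels' protocols. Per the submitters' processing notes, which state no roles, STAR 2.5.1b, HOMER 4.9 and edgeR were used with mm10. The authors deposited 1 table with a signal per gene and library, whose values were whole multiples of 1 read per 10000000 reads of the library total, within 0.01 reads, for 100% of values, so whole reads could be recovered. The counted region is not given in the sources used here. In 99.5% of rows the length equals the genomic span, and 6099 rows overlap another; these values were treated as reads over whole gene bodies without strand. All per-sample columns were used.

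Members were matched by symbol. The test was limma 3.58.1 (R 4.3.3) on log2(level + 1) over genes that averaged 1 unit or more and were 200 nt or longer, with trend and Benjamini-Hochberg adjustment at 0.05. Alternatives were edgeR 4.0.16 (quasi-likelihood) and DESeq2 1.42.0 on recovered reads, median-ratio scaling, quantile normalization, another pseudocount and other filters, and leaving out each pool. The code was tested on simulated data with 200 changed genes. Named in full were the gene with the highest mean in each role, genes with groups that did not overlap, and of other lists the 3 highest and any called. Members, lists and tests were chosen with earlier results of these data known. Sequences are from RefSeq (GRCm38.p6) and GENCODE M21; transcripts were compared in windows of 50 bases.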

Additional observations from a re-analysis of the deposited data

How the results depend on the processing

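No paired analysis was possible because the control and knockdown pools share no replicate number. The count of acinar genes passing the test was 0 with all pools and 0 to 18 with 1 pool left out. Over the whole table, 343 genes passed; the count was 172 after median-ratio scaling, 93 after quantile normalization, 80 with no filter on low values, 544 without the trend, 194 by edgeR and 94 by DESeq2, and 32 to 1303 with 1 pool left out. Of the other exocrine genes, 1 passed (Derl3); the count was 0 after median-ratio or quantile scaling, with no filter, with a mean of at least 5, by edgeR and by DESeq2, and 0 to 10 with 1 pool left out. The log2 ratio of the summed acinar level (−0.26) was −0.44 after median-ratio scaling and ran from −0.80 to 0.28 with 1 pool left out. Leaving out 1 pool also turned the sign of the log2 fold change of every tested acinar gene but Clps, Amy2b, Rnase1 and Bhlha15. Among those that turned were Try5 (−1.53 to 0.24), Pnliprp2 (−1.38 to 0.039), Prss2 (−1.23 to 0.059), Ctrb1 (−1.07 to 0.24) and Cela1 (−1.06 to 0.31). So did Cpa1 (−0.98 to 0.29), Cel (−0.96 to 0.32), Sycn (−1.21 to 0.15), Prss3 (−0.052 to 0.85) and Nr5a2 (−0.11 to 0.23). Other exocrine genes that turned included 2210010C04Rik (−1.21 to 0.085), Dmbt1 (−1.55 to 0.12), Klk1 (−1.14 to 0.31) and Nupr1 (−0.87 to 0.19). Quantile normalization turned Nr5a2 to −0.059. The cause of the changes between methods was not tested. Genes with at most 31 reads a pool (Prss3, Try10, Amy2b, Nr5a2 and the untested members) are limited by counting.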

Other observations

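Besides the 16 acinar genes, 29 other tested genes had the order control 2, knockdown 3, control 1, knockdown 4 with both ratios within a group at 1.5 or more. Among them were 6 genes of the Reg family of secreted lectins, several of which the exocrine pancreas makes. Reg1 had 89.5 and 248 units in control pools against 194 and 72.2 in knockdown pools, so that its pools ranked as for Ctrb1. Casp9, an initiator caspase, stood at 36.2 and 56.9 against 54.9 and 28.1 units, and its row overlaps that of Cela2a on the opposite strand. These genes were picked from the table by the pattern itself, and no test was made of them.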
